A study of Homo sapiens with 6 samples.

Results

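Circular RNAs (circRNAs) whose host carries a ZNF name followed by a number, the symbol series of human zinc finger genes, were taken from a table of 31559 circRNAs in forebrain neurons. The hosts were read from the host symbol of each entry, and 393 circRNAs of 140 hosts met that rule. The selection left out 6 circRNAs of ZNF609 and 1 of another host. The selection used no measured level.

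The cells were made from H9, a human embryonic stem cell line, and were WT, untreated and harvested at day 26. The labels name them both as forebrain neurons and as forebrain neuron progenitor cells. RNA of total cells, of the cytoplasm and of the nucleus was depleted of ribosomal RNA and sequenced in 2 replicates each, 6 libraries in all, to ask where RNAs lie in the cell. Separate cultures are not stated for the replicates, and p-values therefore reflect the spread of these libraries alone, which may be technical. All libraries come from 1 cell line.

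Zinc finger genes of the ZNF series mostly encode DNA-binding proteins in which each finger is a short loop of the protein held around a zinc ion by a pair of cysteines and a pair of histidines. Many belong to the KRAB family, which carries a repressor domain that recruits the corepressor TRIM28, and many of those genes stand in clusters on chromosome 19 and encode all their fingers in a single long last exon. A circRNA forms when a splice donor is joined backwards to an upstream acceptor, which closes the exons between them into a ring without a cap or a poly(A) tail and leaves a back-splice junction that sequencing reads can cross.

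Whole sequences of 4 rings are shown, because they are the most abundant ring (ZNF608), well measured rings that were not called between the compartments (ZNF362, ZNF827) and a ring made of the KRAB-coding exons of its host (ZNF124). They are spliced sequences of GENCODE release 29 transcripts (hg38), read 5′ to 3′ on the strand of the gene, with all exons between the ends kept. Back-splice reads do not show which internal exons a ring keeps. The capitals mark the first 15 and the last 15 bases, which the back-splice joins. The ZNF608 ring is exon 2 alone (chr5:124701014-124701269, minus strand, 256 bases). The ZNF362 ring holds exons 7 and 8 (chr1:33294937-33295305, plus strand, 238 bases). The ZNF827 ring holds exons 6 and 7 (chr4:145845956-145849561, minus strand, 298 bases). The ZNF124 ring holds exons 2 and 3 (chr1:247159006-247159813, minus strand, 188 bases). All 4 are coding sequence throughout.
ZNF608: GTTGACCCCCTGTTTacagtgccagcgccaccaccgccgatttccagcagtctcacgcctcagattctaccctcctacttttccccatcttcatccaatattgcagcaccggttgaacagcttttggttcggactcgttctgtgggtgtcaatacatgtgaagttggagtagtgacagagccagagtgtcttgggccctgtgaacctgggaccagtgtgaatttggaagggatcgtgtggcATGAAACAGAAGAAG
ZNF362: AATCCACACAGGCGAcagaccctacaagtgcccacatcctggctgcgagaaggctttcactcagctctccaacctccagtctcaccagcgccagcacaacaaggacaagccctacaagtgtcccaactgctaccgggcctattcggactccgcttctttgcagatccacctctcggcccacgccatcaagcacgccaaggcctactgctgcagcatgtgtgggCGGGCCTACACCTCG
ZNF827: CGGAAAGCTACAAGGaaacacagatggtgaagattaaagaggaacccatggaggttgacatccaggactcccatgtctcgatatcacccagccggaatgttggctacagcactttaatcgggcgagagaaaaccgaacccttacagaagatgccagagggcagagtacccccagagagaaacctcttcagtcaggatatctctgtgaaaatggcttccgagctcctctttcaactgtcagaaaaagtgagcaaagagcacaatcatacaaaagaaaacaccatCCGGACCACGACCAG
ZNF124: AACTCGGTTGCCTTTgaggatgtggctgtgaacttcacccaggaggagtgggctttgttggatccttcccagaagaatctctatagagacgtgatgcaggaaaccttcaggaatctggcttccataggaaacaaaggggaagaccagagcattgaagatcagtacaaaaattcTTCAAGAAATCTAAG

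For 3 longer rings that were called higher in the cytoplasm as deposited, 120 bases across the junction are shown, with the last 60 bases of the ring in lower case and its first 60 in capitals. They are the rings of ZNF292 (exons 2 to 4, chr6:87215903-87218731, plus strand, 370 bases), ZNF131 (exons 4 and 5, chr5:43161249-43161931, plus strand, 581 bases) and ZNF652 (exons 3 to 5, chr17:49311312-49312845, minus strand, 409 bases). These rings are coding sequence throughout as well.
ZNF292: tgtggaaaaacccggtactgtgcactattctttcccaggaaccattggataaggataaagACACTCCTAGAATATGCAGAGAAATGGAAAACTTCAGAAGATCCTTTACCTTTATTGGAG
ZNF131: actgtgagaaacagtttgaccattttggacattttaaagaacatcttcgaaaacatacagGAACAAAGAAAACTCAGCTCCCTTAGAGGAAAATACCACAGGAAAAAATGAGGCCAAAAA
ZNF652: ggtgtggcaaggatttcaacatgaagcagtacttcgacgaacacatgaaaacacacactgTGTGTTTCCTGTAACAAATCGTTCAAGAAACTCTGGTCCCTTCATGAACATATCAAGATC

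The deposited levels are in FPB, taken here to be back-splice fragments per unit of mapped bases, since no label defines the term. Every value was a whole multiple of the value of 1 read in its library (100% within 0.05 reads), so reads were recovered. The reads of all circRNAs came to 46002 and 52244 for the cytoplasm, 13338 and 15395 for the nucleus and 26114 and 33318 for total RNA. A count of 0 allows up to 3 reads, which is 0.144 to 0.150 FPB for the cytoplasm, 0.203 to 0.247 FPB for the nucleus and 0.296 to 0.369 FPB in total RNA. Intervals and these floors cover counting error only. The neural progenitor markers SOX2, PAX6 and VIM measured 22.6 ± 1.30, 7.12 ± 0.523 and 299 ± 12.4 FPKM (fragments scaled by gene length and library size; SD, n = 2) in total RNA, and markers of neurons (TUBB3, DCX, MAP2, STMN2, GAP43) summed to 490 and 554 FPKM in the total-cell libraries. Pluripotency markers summed to 8.38 and 10.2 FPKM, from LIN28A and DNMT3B, while POU5F1 and NANOG did not exceed 0.0759 FPKM in any library. Glial markers summed to 1.999 and 2.29 FPKM, with MOG listed at 0. Hindbrain and spinal cord markers summed to 0.430 and 0.451 FPKM, and mesenchyme and crest markers to 40.5 and 47.7 FPKM. Their part in the levels of the rings was not tested. Of the fraction markers, the mitochondrial MT-CO1 measured 1685 ± 187 FPKM (SD, n = 2) in cytoplasmic and 194 ± 15.1 FPKM in nuclear RNA. The nuclear RNA MALAT1 measured 34.5 ± 0.0648, 70.4 ± 9.91 and 753 ± 120 FPKM in the cytoplasm, the nucleus and total RNA, so its nuclear level lay below that of total RNA. NEAT1, also listed as a fraction marker, had the opposite order of cytoplasm and nucleus, at levels too low to be tested. Its cytoplasmic mean was 0.532 ± 0.00457, its nuclear mean 0.408 ± 0.0700 and its total-cell mean 1.87 ± 0.229 FPKM.

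Of the 393 rings, 104 from 55 hosts lay on chromosome 19, which is 26.5% of them against 2.49% of the 31166 circRNAs of other hosts. They carried few reads. The chromosome 19 rings held 462 reads over the 6 libraries, whereas 53 rings of 6 hosts on chromosome 18 held 727, 18 rings of 7 hosts on chromosome 1 held 736 and 23 rings of 3 hosts on chromosome 5 held 690. The reads of this gene family therefore came mostly from outside the chromosome 19 clusters. KRAB zinc finger genes of a cluster are near copies of one another, and how reads matching several copies were treated is not given in the sources used here, so the chromosome 19 rings are less certain.

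Both ends of 342 rings (87.0%) fell on exon ends of 1 annotated transcript, against 95.9% for other hosts. Over all rings, most of which have few reads, the zinc finger rings began at exon 2 and held the start codon in larger shares. The first exon in the ring was exon 2 for 136 rings (39.8%; 23.6% for other hosts), and the start codon lay in 110 of the 329 rings on coding transcripts (33.4%; 11.9% for other hosts). Rings of coding sequence alone numbered 202 (59.1%; 84.0% for other hosts), and those with 5′ UTR and coding sequence 103 (30.1%; 11.2%). Among the rings abundant enough to be tested below, these contrasts were absent or turned, on only 22 placed zinc finger rings. Exon 2 came first in 9 of these 22 rings (40.9%) and in 40.9% of those of other hosts. The start codon was in 3 of the 22 (13.6%; 20.6% for other hosts), and coding sequence alone made up 18 (81.8%; 75.8%). Over all placed rings, tested or not, single-exon rings made up 10.5% against 5.94% (18.2% against 13.6% among the tested ones). The median ring had 3 exons and 496 spliced bases over a span of 5917 bases, against 4 exons, 546 bases and 9639 bases for other hosts. All these are descriptions with no test.

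The median adenosine content of the zinc finger rings was 29.1%, close to the 29.7% of other hosts, while their median GC content was 48.7% against 44.8%. The study was about adenosine-rich circRNAs, taken here as those with at least 35% adenosine, a limit that is not the study's. Such rings numbered 26 (7.60%, against 12.3% for other hosts). The longest run of A had a median of 5 bases in both sets.

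Finger-coding sequence was not common to all the rings. A C2H2 finger pattern, taken as cysteine, 2 to 4 residues, cysteine, 12 residues, histidine, 3 to 5 residues and histidine in the translated reading frame, was present in 151 of 329 rings on coding transcripts (45.9%). On chromosome 19 the share was 21.6% and off it 52.9%, and the start codon showed the opposite order, with 47.3% and 29.4%. Individual rings ranged from none to all of the fingers. The ZNF292 ring held 0 of 15 patterns of its transcript, the ZNF124 ring of exons 2 and 3 held 0 of 8, and the ZNF608 exon 2 ring 0 of 1. The ZNF532 ring of exons 5 to 8 held 6 of 10, the ZNF652 ring of exons 3 to 5 held 5 of 7, and the rings of ZNF800 (exons 4 and 5) and ZNF418 (exon 4) held 7 of 7 and 17 of 17. A match to the pattern is a description of the letters and not evidence of a translated protein.

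Hosts differed in how many rings they gave. A single ring was listed for 69 hosts, and the 22 hosts with 5 or more rings held 200 rings (50.9%). ZNF236 had 18 rings with 197 reads, ZNF827 had 15 with 248, ZNF532 had 14 with 405, ZNF423 had 13 with 208, and ZNF536 and ZNF638 had 12 each with 89 and 52. ZNF827 is known to bring the NuRD chromatin complex to telomeres, ZNF423 is a transcription factor of neural development, and ZNF536 is known to restrain neuronal differentiation. In some hosts 1 ring dominated. The leading ring took 96.0% of the reads of ZNF292 (4 rings), 89.4% of ZNF124 (3 rings), 83.1% of ZNF362 (7 rings) and 81.3% of ZNF608 (10 rings), but 34.0% in ZNF236 and 35.1% in ZNF827.

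Rings of a host often shared an end, so they are not independent of each other. Of the 393 rings, 272 (69.2%) had an end in common with another of them. In ZNF236, 10 rings with 184 reads started at position 76849526 of chromosome 18. In ZNF532, 6 rings with 286 reads shared 1 start and 5 rings with 280 reads shared 1 end. In ZNF608, 4 rings with 519 reads ended at position 124701269 of chromosome 5, the upstream edge of exon 2 on this minus-strand gene, among them the most abundant ring.

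**Figure D1:**
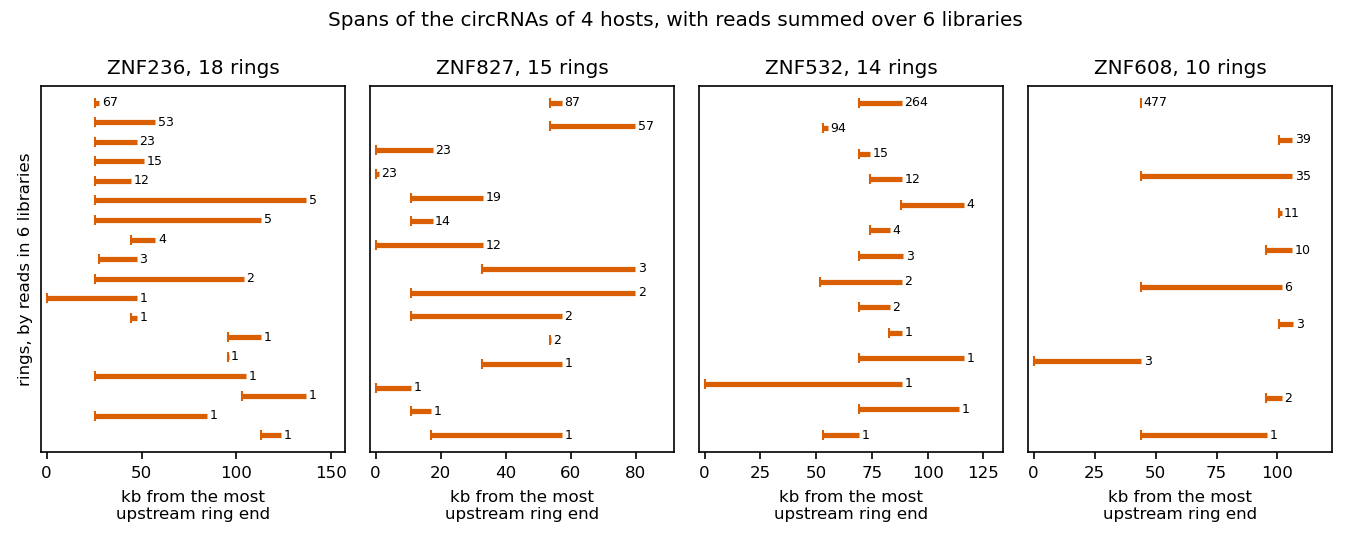
Each bar is the span of 1 circRNA of ZNF236, ZNF827, ZNF532 or ZNF608, in kb from the most upstream ring end of that host and drawn in the direction of transcription, with a tick at its upstream end and its reads summed over the 6 libraries beside it. In ZNF236 10 of the 18 rings begin at the same place, and in ZNF608 the ring with 477 reads is the short exon 2 ring near 44 kb.

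Most of the rings were seen in few reads. A single read supported 162 rings (41.2%; 50.6% for other hosts), 70 rings (17.8%; 10.03%) had at least 10 reads, and 25 (6.36%; 3.55%) were found in all 6 libraries. Over the 6 libraries the most abundant ring took 11.6% of the reads of the group, the top 5 took 38.1% and the top 24 took 63.2%. Reads in cytoplasmic libraries alone marked 111 rings (28.2%; 35.8% for other hosts) and reads in the nuclear libraries alone 46 (11.7%; 11.9%).

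Summed over all 393 rings, the zinc finger hosts gave 984 and 1078 reads in cytoplasmic RNA, 349 and 394 in nuclear RNA and 598 and 695 in total RNA. As a share of all back-splice reads this was 2.14% (95% exact binomial interval 2.01 to 2.28%) and 2.06% (1.94 to 2.19%) in the cytoplasm. In the nucleus it was 2.62% (2.35 to 2.90%) and 2.56% (2.32 to 2.82%), and in total RNA 2.29% (2.11 to 2.48%) and 2.09% (1.94 to 2.25%). Both nuclear libraries thus had a larger share than both cytoplasmic ones, 2.59% ± 0.0405 against 2.101% ± 0.0535 (SD, n = 2), with total RNA at 2.19% ± 0.144. The difference of 0.487 percentage points exceeded these SDs. It fell to 0.264 points without the 5 most abundant rings, where the shares were 1.49% and 1.58% in the nucleus and 1.33% and 1.22% in the cytoplasm. As a ratio of nuclear to cytoplasmic share it was 1.23 for all rings and 1.21 without those 5. With 2 libraries against 2, no exact permutation test can pass 0.05, and none was run.

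**Figure D2:**
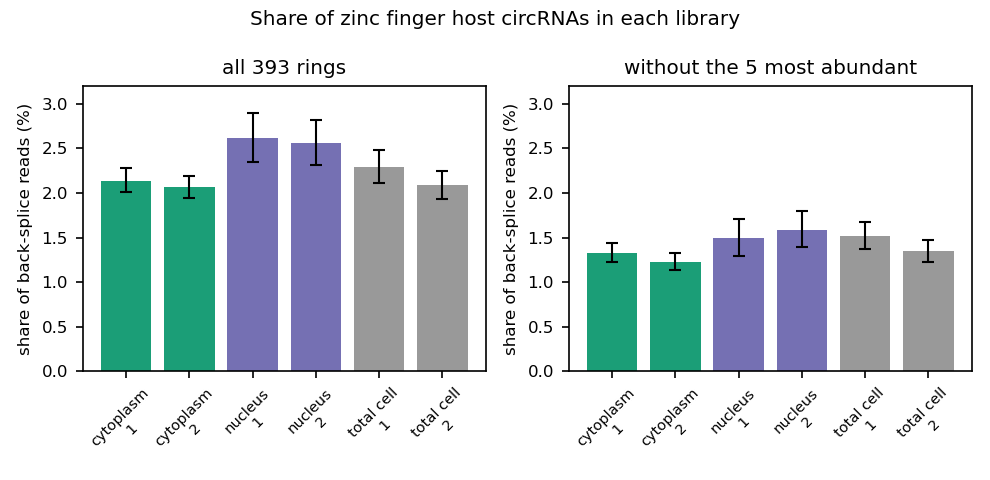
Bars give the share of all back-splice reads (%) that came from the 393 zinc finger host circRNAs in each library, on the left for all of them and on the right without the 5 most abundant, with 95% exact binomial intervals that cover counting error only. Both nuclear bars, 2.62% and 2.56%, stand above both cytoplasmic ones, 2.14% and 2.06%, and the gap is smaller on the right.

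On the deposited FPB scale the summed level was 49.1 and 51.7 in the cytoplasm, 28.8 and 26.7 in the nucleus and 73.6 and 68.5 in total RNA. The cytoplasm to nucleus ratio of 1.82 (1.71 to 1.94 over pairs of libraries) was below the 2.25 (2.098 to 2.41) of circRNAs of other hosts. Which compartment is called higher depends on the scaling. Libraries were also scaled by mRNA levels. The factor was the median, over protein-coding genes found in every library, of a gene's level relative to its own mean over the libraries. Under this scaling the ratio of the zinc finger rings became 0.744. These factors act on all circRNAs alike. The median log2 fold change of the 914 circRNAs tested below fell from 1.05 to 0.05 under them. In RNA from whole cultures, fewer cells of a type and less RNA per cell cannot be told apart.

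The lower ratio was seen in most subsets of the rings, as descriptions. It was 1.85 for zinc finger rings of coding sequence alone against 2.32 for other hosts, and 1.88 against 2.33 for rings of 2 or more exons, where the ranges over pairs of libraries did not overlap. For rings of coding and 5′ UTR sequence, at 1.79 and 2.09, and for single-exon rings, at 1.80 and 1.87, they did overlap. On chromosome 19 the order was the other way, 1.49 for zinc finger hosts and 1.42 for other hosts, again with overlapping ranges. Rings with an adenosine content at or above the median of all circRNAs had a ratio of 2.02 and those below it 1.79, against 2.57 and 1.99 for other hosts, and the ranges below the median overlapped. Zinc finger rings with a finger pattern had 1.76 (1.56 to 1.98) and those without one 1.96 (1.92 to 1.995), with overlapping ranges.

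In all, 24 of the 393 rings, from 16 hosts, reached the mean of 0.369 FPB over the 6 libraries that was required for the test, and the other 369 were not tested. Just inside this limit were rings of ZNF652 (0.370 FPB) and ZNF880 (0.393 FPB), and just outside it rings of ZNF81 (0.329), ZNF644 (0.320) and ZNF516 (0.302). The cytoplasm was compared with the nucleus by limma on log2(FPB + 0.123) in a fit over all 914 circRNAs that reached the limit, with Benjamini-Hochberg adjustment over them. On this scale the changes of weakly covered rings come out smaller than they are.

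By this test 5 of the 24 rings (20.8%) were higher in the cytoplasm as deposited and 0 under either scaling of the libraries described next, where 30.9% of all 914 circRNAs were higher as deposited, and 0 were lower, where 0.328% of all were. edgeR on the recovered reads called 4 higher and 0 lower, where 30.4% and 0.219% of all were. All 24 log2 fold changes were positive, as were 853 of all 914. Those of the 24 ran from 0.20 to 2.07, with a median of 0.83 against 1.05 over all 914. In limma, 11 of the 24 and 452 of all 914 had an unadjusted p below 0.05. Both cytoplasmic libraries were above both nuclear ones for 18 rings (75%), where 74.4% of all 914 circRNAs were. With libraries scaled by mRNA levels the median of all 914 was 0.05 in place of 1.05, and that of the 24 was -0.23. Positive fold changes numbered 8 of 24 and 484 of all 914. Limma called 0 of the 24 (of all 914, 0% higher and 0.109% lower), while 2 of the 24 and 111 of all 914 had an unadjusted p below 0.05. Scaled to 1 circRNA total, the medians were 0.15 and -0.12, and 10 of 24 and 530 of all 914 were positive. Again 0 of the 24 were called (of all, 0% higher and 0.547% lower), while 3 of the 24 and 133 of all 914 had an unadjusted p below 0.05. As deposited but without either 1 of the cytoplasmic libraries, 0 of the 24 were called by limma, and without nucleus replicate 2 there were 3. The share of all 914 called without a library is not given here, so these losses are no result about zinc finger rings in particular. As deposited, the called share of the 24, 20.8%, rests on 5 rings and was not tested against the 30.9% of all 914. Under either scaling, 0 rings were called higher in both sets. The median of the 24 lay below that of all 914 as deposited and under each scaling, a description with no test.

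**Figure D3:**
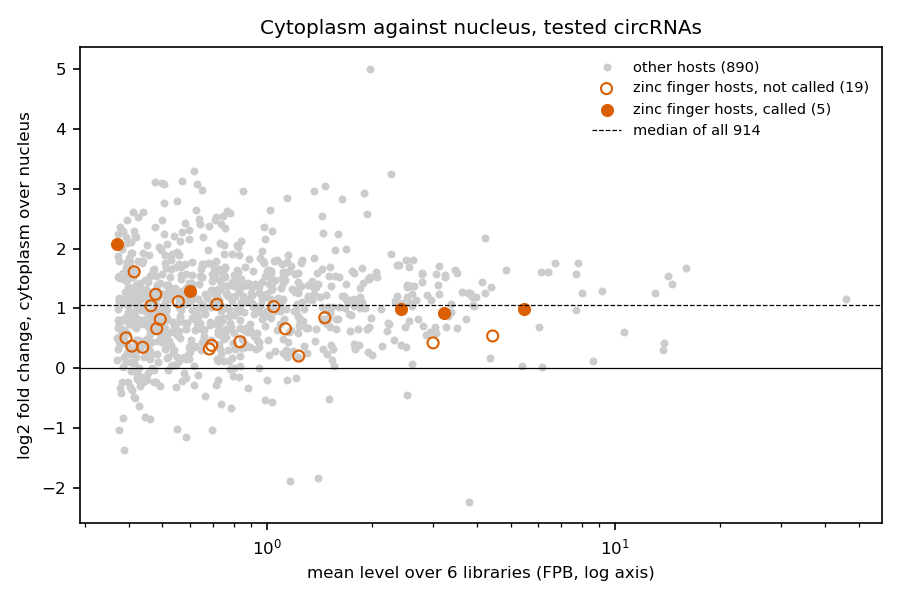
Each point is 1 of the 914 tested circRNAs, with its mean level over the 6 libraries (FPB, log axis) on the horizontal axis and its log2 fold change, cytoplasm over nucleus as deposited, on the vertical axis. The 24 zinc finger rings, in orange and filled for the 5 called, lie between 0.20 and 2.07, with a median of 0.83 below the dashed median of all at 1.05.

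The most abundant zinc finger ring came from ZNF608, which encodes a large nuclear zinc finger protein. Its exon 2 ring stood at 6.18 and 6.91 FPB in cytoplasmic RNA, 3.46 and 2.98 FPB in nuclear RNA and 5.91 and 7.39 FPB in total RNA. The groups of cytoplasmic and nuclear libraries did not overlap, and total RNA was near the cytoplasm. The log2 fold change was 0.997 ± 0.197 (limma SE, adjusted p = 0.00384). This ring has 21.9% adenosine, below the median. Under scaling by mRNA levels its fold change was -0.25 and under scaling to 1 circRNA total -0.14.

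ZNF292 encodes a transcription factor whose variants cause a neurodevelopmental disorder. Its ring of exons 2 to 4 stood at 3.24 and 2.98 FPB for the cytoplasm, 1.57 and 1.42 FPB for the nucleus and 2.71 and 2.66 FPB for total RNA. The cytoplasmic libraries were above all others. Its log2 fold change was 0.998 ± 0.269 (adjusted p = 0.0165, limma), and -0.22 and -0.10 under the scalings by mRNA levels and to 1 circRNA total.

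ZNF532 belongs to a chromatin-associated complex of zinc finger proteins with ZMYND8. Its ring of exons 5 to 8 stood at 3.34 and 3.26 FPB for the cytoplasm, 1.89 and 1.49 FPB for the nucleus and 5.30 and 4.04 FPB for total RNA. Both total-cell libraries were the highest and both nuclear libraries the lowest. The log2 fold change of cytoplasm over nucleus was 0.92 ± 0.26 (adjusted p = 0.0188, limma), and -0.30 and -0.18 under the 2 scalings. A further ZNF532 ring, exon 4 alone with 2363 bases and the start codon (chr18:58918271-58920633), had 17 and 30 reads in the cytoplasm, 7 and 11 in the nucleus and 12 and 17 in total RNA, with a log2 fold change of 0.66 ± 0.39 (adjusted p = 0.184, limma).

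The other called rings rest on few nuclear reads. ZNF131, a BTB-domain zinc finger gene, gave a ring of exons 4 and 5 with 37.2% adenosine and 13 and 13 reads in the cytoplasm, 3 and 2 in the nucleus and 7 and 11 in total RNA. It measured 0.636 ± 0.0172 FPB for the cytoplasm and 0.191 ± 0.0788 FPB for the nucleus, with a log2 fold change of 1.29 ± 0.47 and an adjusted p of 0.0495 in limma and 0.0701 in edgeR on the recovered reads. The call held under 1 of 16 alternatives, without nucleus replicate 1, and was lost under the others, which include both other pseudocounts, other filters and the replicate block (adjusted p = 0.0591). Over the 16 alternatives the adjusted p ran from 0.0332 to 0.785. Under the scalings by mRNA levels and to 1 circRNA total it stood at 0.38 and 0.49 and was not called (adjusted p = 0.785 and 0.658, limma). ZNF652 encodes a DNA-binding transcriptional repressor. Its ring of exons 3 to 5 had 8 and 14 reads in the cytoplasm, 0 and 1 in the nucleus and 4 and 6 in total RNA. Its log2 fold change of 2.07 ± 0.67 (adjusted p = 0.0333 in limma and 0.0227 in edgeR) was the highest of the 24, and it stayed positive, at 1.62 and 1.74, under both scalings, without being called there (adjusted p = 0.409 and 0.317, limma). Another ZNF652 ring with the same downstream end (exons 4 and 5, chr17:49311312-49312042) had 5 and 16 reads in the cytoplasm, 2 and 0 in the nucleus and 5 and 7 in total RNA, and a log2 fold change of 1.61 ± 0.68 (adjusted p = 0.0798, limma). All 8 ZNF652 rings together had 14 and 37 reads in the cytoplasm against 2 and 1 in the nucleus, so the cytoplasmic libraries differed from each other as well.

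Of the 4 most abundant rings, those of ZNF124 and ZNF362 were not called. The larger ZNF124 ring (chr1:247156406-247159813) has a downstream end that is on no annotated exon end of the transcripts used, so no sequence was built for it. It stood at 2.99 and 4.66 FPB for the cytoplasm, 2.55 and 2.51 FPB for the nucleus and 6.65 and 7.29 FPB for total RNA. Total RNA was above both fractions, and the cytoplasmic libraries were apart from each other. The log2 fold change was 0.54 ± 0.24 (adjusted p = 0.0891, limma). The smaller ZNF124 ring of exons 2 and 3 had 8 and 10 reads in the cytoplasm, 1 and 3 in the nucleus and 12 and 7 in total RNA, with 1.11 ± 0.54 (adjusted p = 0.114, limma). The ZNF362 ring stood at 2.89 and 3.26 FPB for the cytoplasm, 2.88 and 1.76 FPB for the nucleus and 4.31 and 2.86 FPB for total RNA. The first nuclear library nearly reached the lower cytoplasmic one, and the log2 fold change was 0.42 ± 0.30 (adjusted p = 0.255, limma).

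Among the remaining better measured rings, the ZNF423 ring of exons 2 and 3, which holds the start codon (chr16:49730771-49789546), measured 1.18 ± 0.447 FPB for the cytoplasm, 0.586 ± 0.130 FPB for the nucleus and 2.62 ± 0.0521 FPB in total RNA. Its log2 fold change was 0.85 ± 0.38 (adjusted p = 0.0911, limma). ZNF148 encodes a factor that binds GC-rich promoter elements, and its ring of exons 2 to 4 (chr3:125313308-125331238) had 37 and 11 reads in the cytoplasm, 12 and 11 in the nucleus and 13 and 17 in total RNA. The cytoplasmic replicates of this ring were farther apart than any difference between the means of fractions, and its log2 fold change of 0.20 ± 0.48 was the lowest of the 24 (adjusted p = 0.729, limma).

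ZNF827 and ZNF236 each gave a pair of tested rings that share their upstream edge. The ZNF827 ring of exons 6 and 7 (chr4:145845956-145849561, 34.9% adenosine) had 21 and 25 reads in the cytoplasm, 7 and 6 in the nucleus and 11 and 17 in total RNA, and the ring that also takes exon 8 (chr4:145823422-145849561) had 12 and 16, 3 and 4, and 10 and 12. Their log2 fold changes stood at 1.03 ± 0.39 and 1.07 ± 0.43, with adjusted p of 0.0573 and 0.0678 (limma). The ZNF236 ring of exons 2 and 3 (chr18:76849526-76851939) and that of exons 2 to 9 (chr18:76849526-76881512) had 0.44 ± 0.41 and 0.38 ± 0.51 (adjusted p = 0.388 and 0.553, limma). None of these 4 rings passed the threshold.

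Another ZNF608 ring, of exons 5 to 8 (chr5:124639133-124644661), had 11 and 9 reads in the cytoplasm, 1 and 3 in the nucleus and 5 and 10 in total RNA, and a log2 fold change of 1.24 ± 0.54 (adjusted p = 0.0853, limma). A short ZNF423 ring (chr16:49730771-49731461) had 14 and 5, 4 and 4, and 5 and 3 reads, with 0.37 ± 0.59 (adjusted p = 0.614). Rings of ZNF418 and ZNF880, both KRAB zinc finger genes on chromosome 19, were found at 0 reads in nucleus replicate 2, with 6 and 7 and with 6 and 4 reads in the cytoplasm. Neither was called, with log2 fold changes of 1.04 ± 0.65 and 0.51 ± 0.74 (adjusted p = 0.202 and 0.581, limma).

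**Figure D4:**
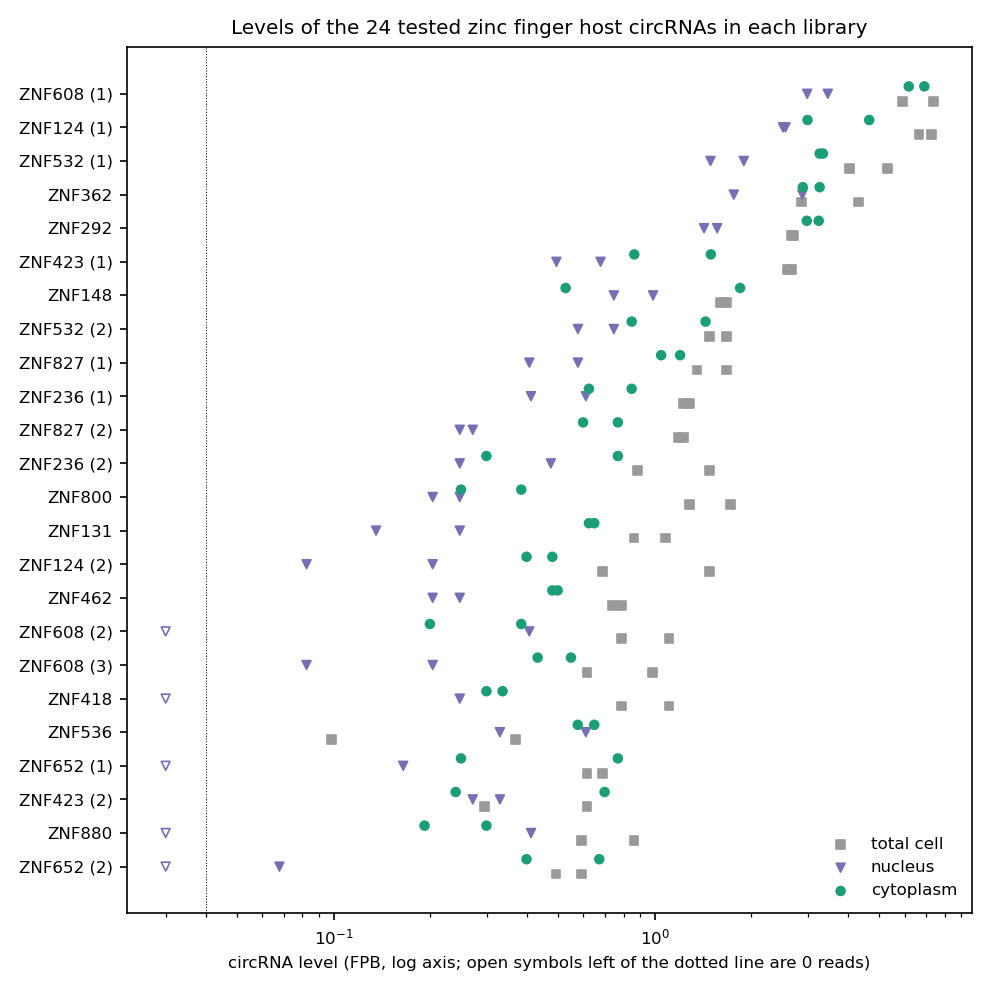
Points give the level (FPB, log axis) of each of the 24 tested rings in each library, with squares for total RNA, triangles for the nucleus, circles for the cytoplasm and open symbols left of the dotted line for 0 reads; rings are ordered by mean level, and the numbers in brackets separate rings of 1 host. On this deposited scale, cytoplasmic circles lie to the right of both nuclear triangles for 18 of the 24 rings, and squares are mostly farthest right.

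In total RNA, 21 of the 24 rings had a mean above those of both fractions, the exceptions being rings of ZNF292, ZNF536 and ZNF423. The summed FPB of circRNAs of other hosts was highest in total RNA as well, at 3143 and 3214. It was 2245 and 2456 for the cytoplasm and 1070 and 1018 for the nucleus. As a sum, this order was therefore not particular to zinc finger rings. How many single rings of other hosts had it was not counted. FPB is scaled within each library, so a total-cell level need not lie between those of the fractions. The ZNF800 ring, which holds 37.6% adenosine and all 7 finger patterns of its transcript, showed a large excess of this kind. It had 5 and 8 reads in the cytoplasm, 3 and 3 in the nucleus and 14 and 13 in total RNA, which is 0.317 ± 0.0952, 0.225 ± 0.0309 and 1.5 ± 0.314 FPB. Its total-cell libraries did not overlap those of either fraction. Between cytoplasm and nucleus it had a log2 fold change of 0.32 ± 0.47 (adjusted p = 0.581, limma). The opposite order was seen for ZNF536 exon 4 (chr19:30547943-30549514, 1572 bases of coding sequence), with 13 and 12 reads in the cytoplasm, 4 and 9 in the nucleus and 3 and 1 in total RNA. Its total-cell mean was 0.234 ± 0.192 FPB, against 0.612 ± 0.0511 FPB for the cytoplasm and 0.470 ± 0.199 FPB for the nucleus. All 12 ZNF536 rings together gave 20 and 31, 14 and 14, and 6 and 4 reads in the same order of fractions.

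The host mRNAs were compared in the same way from a separate table of FPKM, by limma on log2(FPKM + 1) over 13431 genes with a mean of at least 1 FPKM. Of the 140 hosts 139 were in the table and 102 were tested. As deposited, 76 host mRNAs (74.5%) were higher in the cytoplasm (6 with libraries scaled to 1 median), where 83.9% of all tested genes were, and 0 were lower, where 3.07% of all were, with 7 fold changes below 0 and none of them at an unadjusted p below 0.05. Their median log2 fold change was 0.44 against 0.78 over all genes. Scaling to 1 median used the same kind of factor as for the rings, here over all tested genes found in every library. When libraries were scaled in this way the split turned, with 6 hosts higher and 69 lower, against 31.5% and 35.5% of all genes. The medians were -0.24 and -0.04. On both scales the median of the zinc finger hosts lay below that of all tested genes. On log2(FPKM + 1) the changes of weakly expressed genes come out smaller than they are. The part of this in the lower medians was not tested.

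Ring and host mRNA can be set side by side. For 12 of the 24 rings the host mRNA had the larger log2 fold change, and the difference itself was not tested, since the levels come from separately normalized tables. The pseudocounts of rings and hosts also differ, so their changes are shrunk to unlike degrees. With a pseudocount of 0.1 FPKM, ZNF800 mRNA moved from 0.28 to 0.55, past the 0.32 of its ring. ZNF608 and ZNF292 mRNAs, at 0.15 and -0.04, stayed below their rings. How far the count of 12 depends on this was not tested. FPKM may also include reads that fall within rings. ZNF608 mRNA measured 4.73 ± 0.341 FPKM in cytoplasmic and 4.25 ± 0.519 FPKM in nuclear RNA, for a log2 fold change of 0.13 ± 0.13 (adjusted p = 0.336, limma), beside 0.997 for its exon 2 ring. ZNF292 mRNA measured 0.749 ± 0.104 and 0.778 ± 0.159 FPKM, a log2 fold change of -0.02 ± 0.12 (adjusted p = 0.869, limma), beside 0.998 for its ring. The total-cell libraries gave 7.10 and 8.80 FPKM for ZNF292, well above both fractions.

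The order was reversed for ZNF124 and ZNF362. ZNF124 mRNA measured 9.99 ± 0.635 FPKM in cytoplasmic and 1.68 ± 0.271 FPKM in nuclear RNA, for a log2 fold change of 2.04 ± 0.13 (adjusted p = 3.04e-12, limma), beside 0.54 for its larger ring. ZNF362 mRNA measured 9.62 ± 0.482 and 2.95 ± 0.00882 FPKM, 1.43 ± 0.12 (adjusted p = 2.22e-10), beside 0.42 for its ring. These 2 mRNAs remained higher in the cytoplasm with libraries scaled to 1 median, at 1.10 and 0.39. For ZNF532 the values were alike, 0.95 ± 0.13 for the mRNA (14.3 ± 1.30 and 6.92 ± 0.723 FPKM) and 0.92 ± 0.26 for the ring.

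**Figure D5:**
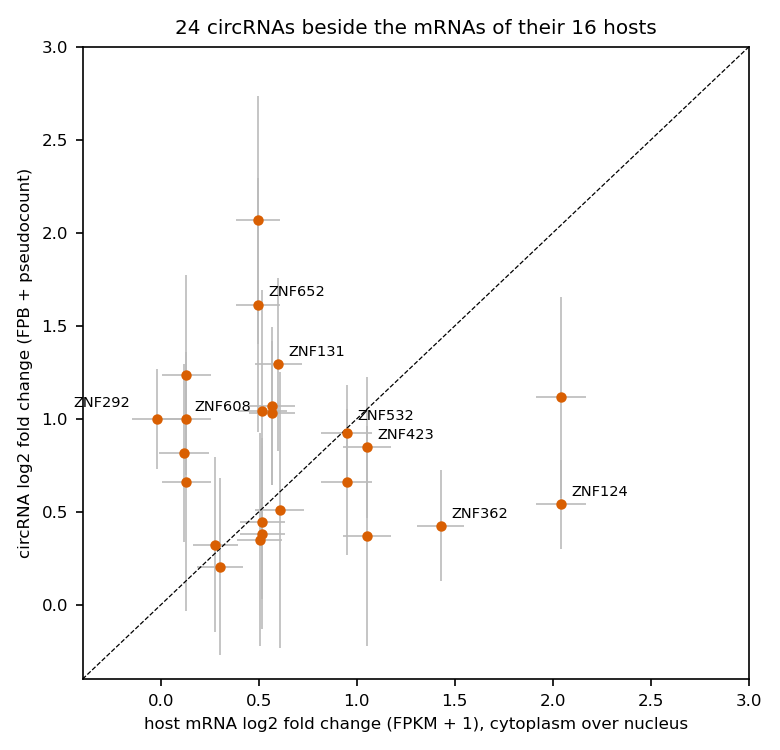
Each point is 1 of the 24 rings, with the log2 fold change (cytoplasm over nucleus, as deposited) of its host mRNA on the horizontal axis and its own on the vertical axis, bars of 1 limma SE, and a dashed line where both are equal; rings of 1 host share a horizontal position. The ZNF124 and ZNF362 rings lie below the line and those of ZNF608, ZNF292 and ZNF652 above it. The axes use unlike pseudocounts, so the side of the line can depend on them for rings close to it.

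Of the 14 genes listed as partners of KRAB zinc finger proteins, all were tested, 10 were higher in the cytoplasm as deposited and 1 was lower, beside 83.9% and 3.07% of all tested genes, with a median log2 fold change of 0.76 beside 0.78. Scaled to 1 median, 3 were higher and 7 lower, beside 31.5% and 35.5% of all, with a median of -0.22 beside -0.04. TRIM28, the corepressor that KRAB domains recruit, measured 58.4 ± 2.52 FPKM in cytoplasmic and 25.3 ± 1.72 FPKM in nuclear RNA (1.17 ± 0.14), and -0.05 when scaled. The heterochromatin proteins CBX5 (1.18), CBX1 (1.38) and CBX3 (1.41) were the next best expressed, at 22.6, 22.4 and 19.05 FPKM in the cytoplasm. The gene called lower was CHD4, the NuRD remodeler, with a log2 fold change of -0.32 (adjusted p = 0.0241, limma) and named after its value was seen.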

How the data were processed

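Per the file headers, the authors deposited circRNA levels as a signal in FPB and gene levels as FPKM. Which caller found back-splices, which annotation was used and how strand was counted is not given in the sources used here. Tools in the submitters' processing notes are Bowtie, featureCounts 2.0.1, HISAT2 2.1.0, SAMtools 1.9 and Trimmomatic 0.39, with the build hg38; their roles are not stated. Libraries were made with a stranded total RNA kit, per the labels' protocols. The lncRNA table was not used here.

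Samples were grouped by the fraction in their titles. Reads were recovered from FPB by the value of 1 read per library, and 7 blank lines were skipped. Rings and host genes were tested by limma 3.58.1 under R 4.3.3, allowing a trend with level, in 1 model with a mean per fraction over 6 libraries (3 residual degrees of freedom; prior degrees of freedom 10.2 for circRNAs and 19.6 for genes). The pseudocounts were 0.123 FPB, which is 1 read in the shallowest library, and 1 FPKM, the filters a mean of 0.369 FPB and 1 FPKM, and the threshold an adjusted p of 0.05. edgeR 4.0.16 (quasi-likelihood) on recovered reads was an alternative and called 4 of the 24 rings higher and 0 lower, against 30.4% and 0.219% of all 914. Other alternatives changed the pseudocount, the filter, the scaling, the trend and the libraries used. The mRNA table was tested with all its gene types, and its total-cell columns hold more decimals than the others, so they may have been computed differently.

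Tested on simulated data, limma recovered 17.6% of 2-fold and 69.2% of 4-fold changes of circRNAs (914 tested, 182 changed, 1 false call) and all of both for genes (13431 tested, 200 changed, 11 false calls). Starts were deposited counted from 0 and are printed counted from 1. Sequences were read from GENCODE release 29 transcripts, and 1 ring sequence and 1 marker list are not reported here. Named rings are the 15 with the highest mean, all called rings and the 5 largest and 5 smallest fold changes. Rings of ZNF418, ZNF880, ZNF644, ZNF81 and ZNF516 were added to the named ones once their values had been seen. Members and lists were chosen with earlier results of these data known. Same-numbered libraries showed no shared deviation (correlations over circRNAs of -0.05, -0.04 and 0.08), and replicate numbers were not taken as pairs. Counting error of weakly covered rings could hide a pairing, so these correlations cannot exclude it.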

Additional observations from a re-analysis of the deposited data

Results flagged for a closer look

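The ZNF644 ring of exons 2 to 4 (chr1:90937485-90982370, minus strand, 3705 spliced bases, 35.9% adenosine) lay just below the limit for testing and was seen in total RNA alone. ZNF644 is known as a partner of the histone methyltransferases that mark H3K9. It had 10 and 7 reads in the total-cell libraries, a mean of 0.961 ± 0.383 FPB (SD, n = 2), and 0 reads in all 4 cytoplasmic and nuclear libraries. A count of 0 allows 3 reads in each library. Averaged over a fraction, its mean total-cell level was 6.54 times this cytoplasmic floor and 4.26 times the nuclear one. These folds leave out the counting error of the 10 and 7 reads. The summed FPB of all circRNAs was also highest in total RNA, at 3216 and 3282. It was 2294 and 2508 for the cytoplasm and 1099 and 1044 for the nucleus, and the folds are not adjusted for that. Of 970 circRNAs with over 3 reads in both total-cell libraries, 8 had 0 reads in the other libraries, and this was the single one of the 26 zinc finger rings of that kind. A shorter ZNF644 ring of exons 3 and 4 (chr1:90937485-90941309) had 3 and 0 reads in the cytoplasm, 0 and 2 in the nucleus and 2 and 4 in total RNA. The total-cell signal was not part of the comparison of cytoplasm and nucleus, and it was noticed after the values were seen.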

How the results depend on the processing

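The count of 5 zinc finger rings called higher in the cytoplasm became 0 with no filter, 0 under scaling by mRNA factors, 0 under scaling to 1 circRNA total and 1 in limma without trend, and 0 to 5 when a library was left out. It was 4 with the replicate block and under each of the other alternatives, and the cause of the changes was not tested. Shares of all circRNAs are given above for edgeR and the 2 scalings, but not for the other alternatives. Counts under those are therefore no result about zinc finger rings in particular. Hosts called higher numbered 76, also with the replicate block, 6 when scaled to 1 median and 53 to 78 without a library, and hosts called lower went from 0 to 69 when scaled. For all genes, the called share is given above only as deposited and scaled to 1 median. The cytoplasm to nucleus ratio of summed FPB, 1.82, reversed to 0.744 under mRNA factors and was 1.75 to 1.89 without a library. The nuclear minus cytoplasmic share was 0.264 points without the 5 most abundant rings, an alternative chosen after seeing the data, and 0.449 to 0.525 without a library.

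Under mRNA factors the log2 fold change turned negative for 14 of 20 named rings, and none was called. These were ZNF148 (-0.94), ZNF362 (-0.81), ZNF536 (-0.70), the larger ZNF124 ring (-0.70), ZNF236 (-0.64 and -0.61), ZNF423 (-0.61 for the short ring and -0.27), ZNF800 (-0.58), ZNF532 (-0.47 for exon 4 and -0.30), ZNF608 (-0.25), ZNF292 (-0.22) and the shorter ZNF827 ring (-0.0672). Scaled to 1 circRNA total they were, in that order and without ZNF827, -0.84, -0.69, -0.62, -0.59, -0.55 and -0.55, -0.52 and -0.17, -0.52, -0.37 and -0.18, -0.14 and -0.10. When a library was left out, ZNF148 ranged from -0.59 (without cytoplasm replicate 1) to 1.002, the short ZNF423 ring from -0.22 (the same library) to 0.96, and the longer ZNF236 ring from -0.16 (without cytoplasm replicate 2) to 0.92. Scaled to 1 median, host mRNAs turned to -0.93 (ZNF608), -0.32 (ZNF800), -0.31 (ZNF536), -0.31 (ZNF148), -0.27 (ZNF827), -0.25 (ZNF131), -0.20 (ZNF532), -0.17 (ZNF236) and -0.11 (ZNF652). ZNF292 mRNA was at 0.039 without cytoplasm replicate 2 and at 0.069 when nucleus replicate 2 was left out, and ZNF638 mRNA ranged from -0.15 to 0.047, the latter with that same library left out. Apart from the scalings, 246 of 280 alternative values of the named rings and 142 of 154 of the hosts kept their direction and their side of the threshold. The called rings of ZNF608, ZNF292 and ZNF652 passed the threshold in 10 of 16 alternatives each, that of ZNF532 in 9 and that of ZNF131 in 1. Depth is a limit too, since 162 of 393 rings rest on a single read.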
